A study of Homo sapiens with 24 samples.

Results

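The response of human sensory neuron cultures to transforming growth factor β (TGF-β) was examined by comparing the 6 libraries treated with TGF-β with the 6 vehicle libraries of the same differentiation batches. These are 12 of the 24 libraries of the series, chosen by the treatment in their titles and paired by their batch labels, 1 to 6. The other 12 libraries received IL-6 or IL-4 + IL-13. All cells were wild-type H9 (H9WAO9 in the labels), a human embryonic stem cell line, taken to vagal neural crest cells in 12 days and to spheroids in 4 days. Sensory neuron differentiation took 6 days and maturation 2 to 3 weeks. Mature cultures then received TGF-β at 2 ng/ml for 5 days, or the same volume of its solvent, 0.1% bovine serum albumin in phosphate-buffered saline. The model has limits: it rests on 1 cell line, and RNA came from whole cultures in which neurons were a minority of the cells. In such bulk RNA, fewer cells of a type and less RNA per cell cannot be told apart.

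TGF-β is a secreted cytokine that binds a pair of receptor kinases, TGFBR1 and TGFBR2, which phosphorylate the transcription factors SMAD2 and SMAD3. These enter the nucleus with SMAD4, act on genes for matrix proteins, proteases, cytokines and their own inhibitors, and often do so together with AP-1 factors. The related bone morphogenetic proteins (BMPs) signal through other SMADs, and in the airway TGF-β is best known for its role in remodelling of the matrix.

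Between 33342682 and 39425309 reads per library were counted on genes in the 12 libraries. Levels are in CPM, read counts scaled to library size after TMM normalisation, and a change is called at an adjusted p under 0.05 by edgeR in a fit with the batch as a block. The pairing by batch held unevenly. Over 16900 genes, the deviation of a vehicle library from its group's mean correlated with those of the 3 treated libraries of its own batch at mean values of 0.820, 0.661, 0.350 and 0.652 in batches 1, 3, 5 and 6. The vehicle libraries of batches 2 and 4 went against their labels. Their values were 0.0558 and 0.165, whereas the vehicle library of batch 2 reached 0.477 with the treated libraries of batch 4, and that of batch 4 reached 0.469 with those of batch 2. Their labels were kept, and counts are therefore also given without batches 2 and 4. Of the markers of other cells, the summed level of 9 fibroblast and mesenchyme markers was higher with TGF-β in 5 of 6 batches (3574 to 11060 CPM in vehicle, 4519 to 14141 CPM with TGF-β), and that of 9 neuron markers in 4 of 6 (1792 to 10770 and 1599 to 11271 CPM). The sum of 8 glia and neural crest markers was higher in 6 of 6 batches (62.1 to 116 CPM in vehicle, 96.8 to 170.4 CPM with TGF-β). That of 6 muscle markers was lower in 6 of 6 (54.4 to 86.3 and 40.8 to 73.6 CPM), and those of 5 endothelium and blood markers and of 4 melanocyte markers were higher in 1 of 6. Batches 2 and 4 moved in opposite directions. The neuron sum went from 8509 to 4820 CPM in batch 2 and from 7173 to 11271 CPM in batch 4. The fibroblast and mesenchyme sum went from 9426 to 5023 CPM in batch 2 and from 5744 to 10291 CPM in batch 4. The part of these cells in the results was not tested.

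Few genes were called as different between TGF-β and vehicle. Of 28701 entries tested, 15 rose (0.0523%) and 38 fell (0.132%), and 44 of these 53 were named genes, 13 higher and 31 lower. The largest rise was that of COL10A1, a cartilage collagen gene, and the lowest adjusted p values among the falls were those of ABCB5, a transporter gene, and ETNPPL, an enzyme gene of phospholipid breakdown. Of the 44 named genes, 25 passed a log2 fold change of 1 in size, 9 higher and 16 lower. The direction was the same in 6 of 6 batches for 43 of the 44, GARRE1 being the exception. In all, 457 entries (2.18%) were higher and 658 (3.14%) lower in 6 of 6 batches among the 20971 with a mean count of at least 10.

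How many genes were called depended on the batches and on the test. Without batches 2 and 4, 6 entries were called, with COL10A1, R3HDML and MMP7 among them. Leaving out 1 batch at a time gave 23 called entries without batch 1, 49 without batch 2, 5 without batch 3, 29 without batch 4, 1 without batch 5 and 14 without batch 6. Only COL10A1 was called without batch 5. At an unadjusted p under 0.05, edgeR had 809 entries higher (2.82%) and 1190 lower (4.15%). DESeq2 called 77 entries higher (0.268%) and 218 lower (0.76%), with all 44 named genes among them. Of the 44 genes, 41 to 44 were tested under each alternative, and each kept its direction in all of them. The 44 were called on these same libraries, 43 of them with 1 direction in 6 of 6 batches, so a reversal was unlikely beforehand. The log2 fold change of GARRE1 was 4.27 in the reported fit and 0.0091 with its entries summed.

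**Figure D1:**
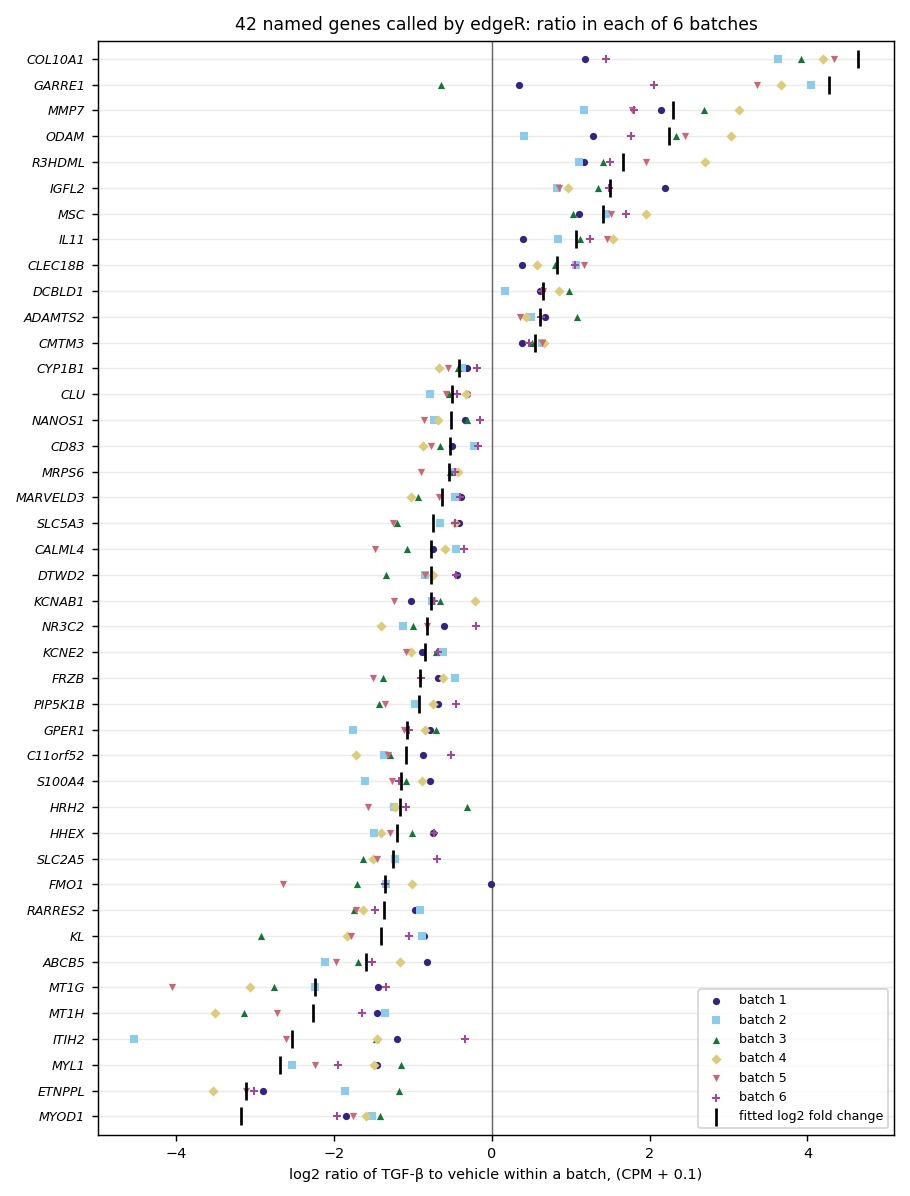
Log2 ratio of TGF-β to vehicle within each batch for 42 of the 44 named genes called by edgeR, on the scale of CPM + 0.1. Coloured points are the 6 batches and black bars the fitted log2 fold changes; all points of a gene lie on 1 side of 0 except for GARRE1, which is below 0 in batch 3.

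Some of the genes that rose encode matrix proteins or matrix proteases. COL10A1 encodes the chain of type X collagen, the collagen of hypertrophic cartilage. Its level was 0 to 0.251 CPM in vehicle (median 0.0517) and 0.127 to 5.19 CPM with TGF-β (median 1.86). The groups overlapped through the TGF-β library of batch 1, the lowest of its group, but each batch moved upwards. The log2 fold change was 4.64 (SE 0.48, adjusted p = 0.000256). The mean count was 37.75 over the 12 libraries and 2 vehicle libraries had no read, so the size of this fold rests on few reads. COL10A1 was the only member called by edgeR of the 43 measured collagen genes with a mean count of at least 10 (0.0523% of all entries were called higher). Of the 43, 1 (2.33%) was higher and 2 (4.65%) were lower in 6 of 6 batches. The shares of all entries were 2.18% and 3.14%. Without batches 2 and 4 its log2 fold change was 4.31 (adjusted p = 0.0106).

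MMP7, or matrilysin, is a secreted protease that cleaves matrix proteins and cell surface proteins. Its level was 0.100 to 4.68 CPM in vehicle (median 0.260) and 0.666 to 21.1 CPM with TGF-β (median 1.83). Both groups had their highest library in batch 1, so the levels overlapped, while the ratio was above 0 in every batch. MMP7 rose by a log2 fold change of 2.29 (SE 0.36, adjusted p = 0.0135). ADAMTS2 is listed in 2 entries and cleaves the amino-terminal propeptide of fibrillar procollagens. Its main entry went from a median of 22.6 to 34.2 CPM, a log2 fold change of 0.61 (SE 0.11, adjusted p = 0.0489). Of 44 matrix proteases and inhibitors, these 2 were called higher (0.0523% of all entries) and 5 (11.4%) were higher in 6 of 6 batches (2.18% of all entries). In the 4 batches other than 2 and 4, 19 were higher in each, where the share of all entries was 10.2%.

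R3HDML, a little studied gene for a secreted protein, had 1.86 to 4.57 CPM in vehicle (median 2.50) and 4.57 to 12.6 CPM with TGF-β (median 10.9). The groups just failed to overlap, as in 8 of 20971 entries that were higher (0.0381%), the lowest TGF-β library being that of batch 2 and the highest vehicle library that of batch 1. The log2 fold change was 1.67 (SE 0.18, adjusted p = 0.00243), and 1.51 without batches 2 and 4 (adjusted p = 0.00718). ODAM, which encodes a secreted protein of enamel-forming cells, rose from a median of 0.321 to 2.74 CPM, with a log2 fold change of 2.25 (SE 0.28, adjusted p = 0.00263).

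IL11, a cytokine of the IL-6 family known as a target of TGF-β in fibroblasts, had 11.8 to 87.8 CPM in vehicle (median 20.5) and 28.1 to 115.8 CPM with TGF-β (median 56.1). Batch 1 was the highest in both groups and had the smallest ratio, and the groups overlapped. IL11 rose by a log2 fold change of 1.07 (SE 0.18, adjusted p = 0.0438), but the adjusted p was 0.121 without batches 2 and 4. MSC, the gene of the transcriptional repressor musculin, rose by 1.41 (SE 0.24, adjusted p = 0.0448), and IGFL2, of the insulin-like growth factor-like family, by 1.5 (SE 0.27, adjusted p = 0.0489). The membrane protein genes CMTM3 and DCBLD1 rose by 0.55 and 0.65 on the same log2 scale, both at an adjusted p of 0.0489.

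CLEC18B, a C-type lectin gene, rose by a log2 fold change of 0.82 (adjusted p = 0.0489). Its near-identical copies CLEC18A and CLEC18C were also higher in 6 of 6 batches, at 0.79 each, with adjusted p values of 0.187 and 0.102. How reads were divided among the 3 copies is not given in the sources used here, so the change of any 1 copy is uncertain. GARRE1 rose in 1 of 4 entries of that symbol, with a log2 fold change of 4.27 (adjusted p = 0.0372). With the 4 entries summed the value was 0.0091, so the gene as a whole gave no such difference.

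**Figure D2:**
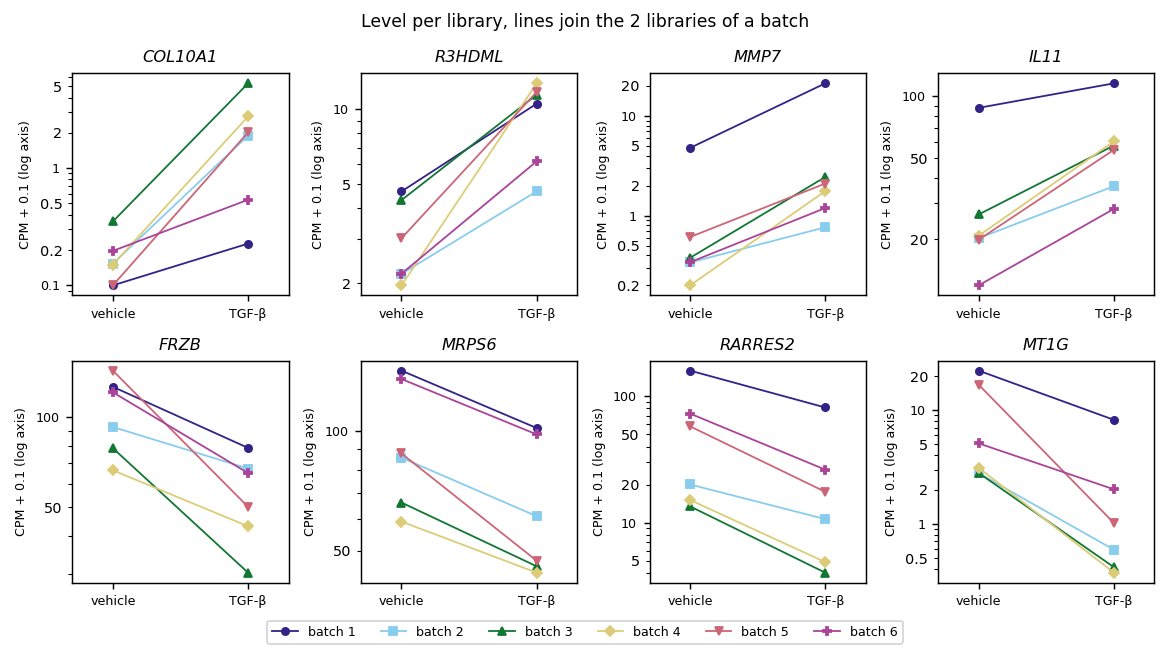
CPM + 0.1 on a log axis in each of the 12 libraries for 8 genes; a line joins the vehicle and the TGF-β library of a batch. All lines of COL10A1, R3HDML, MMP7 and IL11 rise and all lines of FRZB, MRPS6, RARRES2 and MT1G fall.

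The promoters of MMP7 and IL11 are shown because both genes rose and both hold a match to the AP-1 motif. The sequences are the 250 bases before the start site in RefSeq (GRCh38.p14), both on the minus strand, with the motif TGANTCA in capitals. MMP7 lies at chr11:102530748-102530997 and IL11 at chr19:55370464-55370713.
MMP7: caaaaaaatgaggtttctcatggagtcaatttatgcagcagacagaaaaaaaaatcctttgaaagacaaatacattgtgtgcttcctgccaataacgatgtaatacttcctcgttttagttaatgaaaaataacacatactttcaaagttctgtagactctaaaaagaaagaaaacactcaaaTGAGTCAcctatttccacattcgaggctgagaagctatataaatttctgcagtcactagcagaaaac
IL11: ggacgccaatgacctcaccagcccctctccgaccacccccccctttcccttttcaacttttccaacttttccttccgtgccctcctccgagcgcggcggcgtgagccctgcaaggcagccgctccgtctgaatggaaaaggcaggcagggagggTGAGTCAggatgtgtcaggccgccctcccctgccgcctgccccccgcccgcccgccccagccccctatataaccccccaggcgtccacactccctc

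The match begins 67 bases before the start site in MMP7 and 96 bases before it in IL11. Both strands were searched. Of the 13 named genes that rose, 10 had a promoter in the table and 4 of them (COL10A1, IL11, MMP7 and ODAM) held TGANTCA, against 1 of 22 of the genes that fell (KCNAB1) and 8.06% of all 27305 genes in the table. The SMAD motif CAGAC was in 8 of the 10 and in 16 of the 22, against 42.8% of all genes. These are matches of letters in a window and were not tested.

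Of the genes known to respond to SMAD2 and SMAD3, a list of 24, IL11 was called by edgeR and 5 (20.8%) were higher in 6 of 6 batches, where the share of all entries was 2.18%. DESeq2 called 4 of the 24. HMGA2, a chromatin protein gene, went from a median of 32.2 to 67.2 CPM, with a log2 fold change of 1.01 (SE 0.19) and an adjusted p of 0.0623. SKIL and SKI encode inhibitors of SMAD proteins and had log2 fold changes of 0.23 (adjusted p = 0.213) and 0.11 (adjusted p = 0.808). LDLRAD4, another inhibitor of the pathway, had one of 0.27 (adjusted p = 0.365). None of these 4 passed edgeR's test, and DESeq2 called HMGA2 (adjusted p = 0.000183) and SKIL (adjusted p = 0.00709).

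A further 8 members were higher in 5 of 6 batches. PMEPA1, which encodes an inhibitor of the receptor's access to SMAD2 and SMAD3, had a log2 fold change of 0.90 (adjusted p = 0.195), with ratios from −0.13 in batch 2 to 1.82 in batch 4. TGFBI, a matrix protein gene named for its induction by TGF-β, had a log2 fold change of 0.83 (adjusted p = 0.467), from −0.25 in batch 2 to 1.75 in batch 6. For SMAD7, the inhibitory SMAD, the log2 fold change was 0.16 (adjusted p = 0.905). In each of these 3 genes batch 2 was the exception. Without batches 2 and 4, 12 of the 24 members were higher in each batch left, none was called by edgeR, and the share of all entries was 10.2%.

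Among ligands, receptors and binding proteins of the TGF-β family, 3 of 37 (8.11%, against 2.18% of all entries) were higher and 3 (8.11%, against 3.14%) were lower in 6 of 6 batches. None was called by edgeR, and LTBP4, INHBA and TGFBR3 were called by DESeq2 (adjusted p = 0.00103, 0.0226 and 0.0226). LTBP4, which holds latent TGF-β in the matrix, had a log2 fold change of 0.37 (SE 0.07, adjusted p = 0.0771), with little spread over the batches (0.32 to 0.42). INHBA, the activin A subunit, had a difference of 1.34 (adjusted p = 0.264), and FST, which binds activins, one of 0.74 (adjusted p = 0.241). The receptor genes TGFBR2 and TGFBR3 were lower in each batch, at −0.53 and −0.69 (adjusted p = 0.326 and 0.21). Of 18 targets and inhibitors of BMP signalling, 3 (16.7%, against 3.14% of all entries) were lower in each batch: NOG, a BMP antagonist (−0.81, adjusted p = 0.318), SMAD6 (−0.47, adjusted p = 0.313) and ID1 (−0.26, adjusted p = 0.56). NOG was called by DESeq2 (adjusted p = 0.0364).

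**Figure D3:**
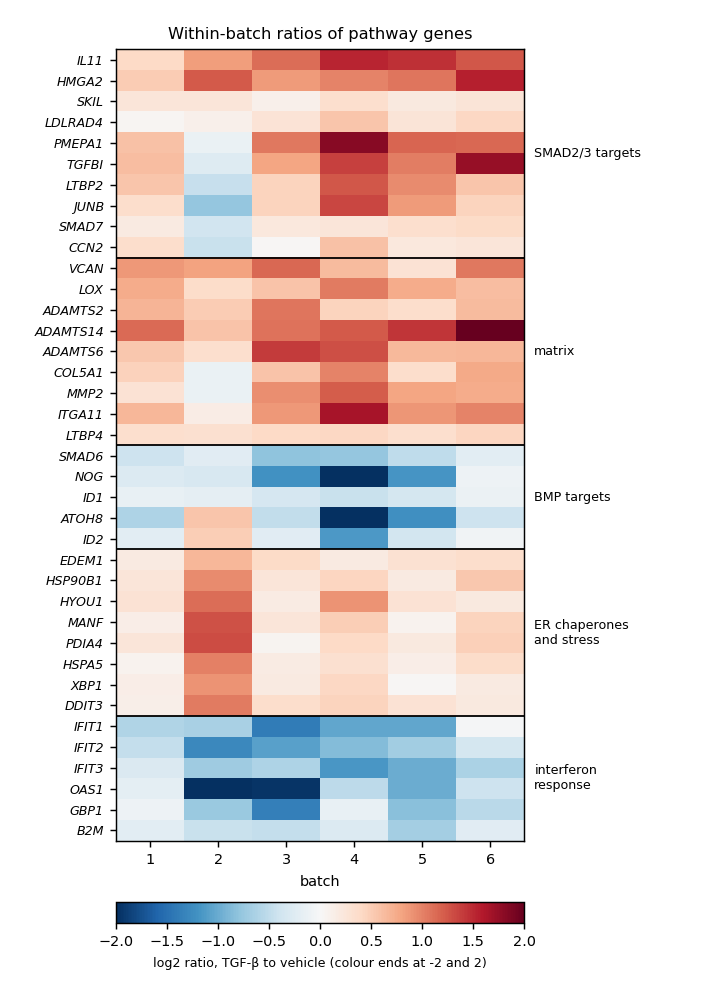
Log2 ratio of TGF-β to vehicle within each batch for genes of 5 groups, blue lower and red higher, with the colour ending at −2 and 2. Most SMAD2/3 and matrix genes are red in 5 or 6 batches with batch 2 the exception, while batch 2 has the highest ratios of the genes of the endoplasmic reticulum (ER).

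Other matrix and signalling genes had differences in 6 of 6 batches without being called by edgeR, and the 5 described here were called by DESeq2 (adjusted p of 0.000107 for SPARCL1 to 0.037 for ITGA11). VCAN encodes versican, a large matrix proteoglycan, and had 121 to 283 CPM in vehicle and 250.1 to 437 CPM with TGF-β, a difference of 0.80 on the log2 scale (SE 0.15, adjusted p = 0.0646). LOX, which crosslinks collagen and elastin, had a log2 fold change of 0.67 (adjusted p = 0.195), and the procollagen protease gene ADAMTS14 one of 1.28 (adjusted p = 0.0807). ITGA11, a collagen-binding integrin gene, had 0.82 (adjusted p = 0.234). In the other direction, SPARCL1, a matrix glycoprotein gene, went from a median of 88.1 to 40.2 CPM (log2 fold change −1.06, SE 0.20, adjusted p = 0.0592).

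Of 56 tested WNT pathway genes, FRZB, a secreted antagonist of WNT proteins, was called (0.132% of all entries were called lower). Of the 53 with a mean count of at least 10, 2 (3.77%) were higher and 4 (7.55%) lower in 6 of 6 batches. The shares of all entries were 2.18% and 3.14%. FRZB had 66.3 to 142 CPM in vehicle (median 107) and 30.2 to 78.7 CPM with TGF-β (median 57.5). The groups overlapped by a narrow range. FRZB fell by 0.91 on the log2 scale (SE 0.15, adjusted p = 0.0404). WNT5A, a non-canonical WNT ligand, was higher in 6 of 6 batches (log2 fold change 0.39, adjusted p = 0.181), and DKK2, a WNT modulator, was lower in 6 of 6 (−0.83, adjusted p = 0.248). HHIP, which binds hedgehog ligands, had a log2 fold change of 1.35 (adjusted p = 0.0873).

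Several of the 31 named genes that fell encode transporters, channels or receptors. ABCB5 encodes a drug and lipid transporter of the ATP-binding cassette family. It had 3.67 to 16.1 CPM in vehicle (median 5.42) and 0.927 to 5.58 CPM with TGF-β (median 1.91), with an overlap of the groups. ABCB5 had a log2 fold change of −1.59 (SE 0.19, adjusted p = 0.00501). SLC2A5, the fructose transporter, had one of −1.25 (SE 0.18, adjusted p = 0.0135). HRH2, the histamine H2 receptor, had −1.15 (adjusted p = 0.0489), and GPER1, a membrane receptor for oestrogens, −1.07 (SE 0.17, adjusted p = 0.0382).

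RARRES2 encodes chemerin, a secreted chemoattractant. Its level was 13.4 to 159.3 CPM in vehicle (median 38.8) and 3.92 to 81.4 CPM with TGF-β (median 14). Batch 1 was the highest in both groups, the groups overlapped, and the ratio was between −1.74 and −0.91 in every batch. The log2 fold change was −1.36 (SE 0.21, adjusted p = 0.0333). ETNPPL, which breaks down phosphoethanolamine, fell from a median of 1.62 to 0.239 CPM (log2 fold change −3.11, SE 0.42, adjusted p = 0.00818). KL encodes klotho, a co-receptor for a fibroblast growth factor, and fell from a median of 6.56 to 2.90 CPM (log2 fold change −1.40, SE 0.25, adjusted p = 0.0489).

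A run of neighbouring genes on chromosome 21 was among those that fell. MRPS6, a protein of the small subunit of the mitochondrial ribosome, lies at 34073578 to 34143030 of GRCh38.p14. SLC5A3, the sodium-coupled transporter of myo-inositol, lies at 34073578 to 34106260 and shares the start site of MRPS6. KCNE2, a potassium channel subunit, lies at 34364006 to 34371381. MRPS6 and SLC5A3 overlap, and with the strand setting of the counting not given, their reads cannot be told apart with certainty. Their common promoter is printed because both genes fell, with the letters CAGAC or their complement GTCTG in capitals, at chr21:34073328-34073577 on the plus strand.
MRPS6 and SLC5A3: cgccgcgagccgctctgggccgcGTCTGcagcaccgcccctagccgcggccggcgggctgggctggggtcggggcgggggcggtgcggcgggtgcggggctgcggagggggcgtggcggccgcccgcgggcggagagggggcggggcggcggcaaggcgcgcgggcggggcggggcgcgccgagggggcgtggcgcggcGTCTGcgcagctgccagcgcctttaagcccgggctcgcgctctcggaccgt

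MRPS6 had 59.1 to 141.5 CPM in vehicle (median 86.6) and 44.0 to 101.6 CPM with TGF-β (median 54.1). The groups overlapped and every batch moved downwards. Its log2 fold change was −0.54 (SE 0.07, adjusted p = 0.0117). SLC5A3 went from a median of 242 to 119 CPM (log2 fold change −0.75, SE 0.13, adjusted p = 0.0448), and KCNE2 from 3.48 to 1.87 CPM (−0.84, SE 0.12, adjusted p = 0.0117). Of 10 genes of the surroundings, these 3 were called (0.132% of all entries were called lower). The list was made after the values were seen, with the falls of these 3 known, so their count adds no support. ATP5PO, a subunit of the mitochondrial ATP synthase, was at −0.02 (adjusted p = 0.992), and RCAN1, an inhibitor of calcineurin, at −0.16 (adjusted p = 0.917). RUNX1, a transcription factor gene, was higher in 5 of 6 batches (1.07, adjusted p = 0.156).

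Metallothioneins are small proteins that bind zinc and copper. MT1G had 2.69 to 22.2 CPM in vehicle (median 4.01) and 0.272 to 8.13 CPM with TGF-β (median 0.705), and fell by 2.24 on the log2 scale (SE 0.38, adjusted p = 0.0448). MT1H fell by 2.26 (SE 0.39, adjusted p = 0.0438), from a median of 1.05 to 0.195 CPM. Within the batches, the ratio of MT1G ran from −4.04 in batch 5 to −1.34 in batch 6. The other members with a mean count of at least 10 had smaller values, such as −0.64 for MT1E (adjusted p = 0.372) and −0.14 for MT2A (adjusted p = 0.972). The genes are near-identical copies, and how their reads were divided is not given, so the values of single members are uncertain.

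The promoter of MT1H is shown because metallothionein genes are known for repeated metal response elements. The 250 bases before its start site (RefSeq, GRCh38.p14, chr16:56669564-56669813, plus strand) hold 8 matches to TGCGCNC or TGCACNC on either strand, in capitals. A match was found in 28.5% of all genes with a promoter in the table.
MT1H: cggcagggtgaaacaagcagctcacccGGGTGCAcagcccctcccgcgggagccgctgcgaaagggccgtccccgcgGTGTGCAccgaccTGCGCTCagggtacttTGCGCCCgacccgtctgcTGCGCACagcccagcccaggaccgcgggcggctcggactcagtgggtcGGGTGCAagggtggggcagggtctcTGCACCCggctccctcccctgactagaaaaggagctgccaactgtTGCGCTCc

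KL and KCNE2, which both fell, are known from the epithelium of the choroid plexus, which secretes cerebrospinal fluid. A list of 16 genes of that epithelium was therefore written after the values were seen, and it is described without a test. All 16 had a mean count of at least 10. The 2 called lower (0.132% of all entries) were KL and KCNE2, which prompted the list, so their calls were known beforehand. With these 2 included, 11 (68.8%) were lower in 6 of 6 batches, where the share of all entries was 3.14%. DESeq2 called 8 of the 16 lower (0.76% of all entries). Their median log2 fold change was −0.71, where the median of all entries was 0.0049. Without batches 2 and 4, 13 of the 16 were lower in each batch left, where the share of all entries was 10.7%.

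TTR, the transthyretin gene that is the most abundant product of this epithelium, had 1079 to 23470 CPM in vehicle and 317 to 16065 CPM with TGF-β. Its log2 fold change was −0.96 (SE 0.29, adjusted p = 0.369). ENPP2, which encodes autotaxin, had 149 to 641 CPM in vehicle and 52.7 to 372 CPM with TGF-β (−1.03 on the log2 scale, adjusted p = 0.051 by edgeR and 0.000103 by DESeq2), and FOLR1, a folate receptor gene, a log2 fold change of −0.74 (adjusted p = 0.208). OTX2, the transcription factor gene of this tissue, had 0.05 (adjusted p = 0.985). The summed level of the 16 genes was lower with TGF-β in 6 of 6 batches. It was 1821 to 27251 CPM in vehicle and 775 to 19154 CPM with TGF-β. By the levels given above, TTR alone holds a large part of this sum, so the sum does not stand for the 16 genes alike. The part of such cells in the falls of single genes was not tested.

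Of 9 measured genes of the retinal pigment epithelium, a list also made after the values were seen, 4 (44.4%, against 3.14% of all entries) were lower in 6 of 6 batches. These were the pigment enzyme genes TYRP1 and TYR, the transcription factor gene MITF, and RPE65, of the visual cycle (log2 fold changes −1.08, −0.93, −0.60 and −0.97, with adjusted p values of 0.065, 0.288, 0.14 and 0.475). None was called by edgeR, and DESeq2 called TYRP1, TYR and MITF. Of the others, 1 was lower in 5 of 6 batches, and none of the 9 was higher in 5 or 6 of 6. The log2 fold changes of the 9 ran from −1.08 to 1.72, so the list did not fall as a whole. TYRP1, TYR and MITF are also genes of melanocytes.

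The other named genes that fell have varied roles. S100A4, a calcium-binding protein gene of mesenchymal cells, had a log2 fold change of −1.15 (SE 0.19, adjusted p = 0.0414), and CD83, a surface protein gene of dendritic cells, one of −0.53 (adjusted p = 0.0438). DTWD2, which modifies transfer RNA, had −0.76 (adjusted p = 0.0338), and PIP5K1B, a kinase gene of phosphoinositide synthesis, −0.92 (adjusted p = 0.0438). HHEX, a homeobox gene, fell by 1.20 on the log2 scale, and ITIH2, which encodes a heavy chain that binds hyaluronan, fell by 2.53, both at an adjusted p of 0.0489.

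The ratio of ITIH2 ran from −4.53 in batch 2 to −0.34 in batch 6. A group of 9 further genes had this same adjusted p of 0.0489 and fell by 0.42 (CYP1B1, a cytochrome P450) to 1.35 (FMO1, a flavin monooxygenase). The others in order of size are C11orf52 (−1.09), NR3C2, the mineralocorticoid receptor (−0.81), KCNAB1, a potassium channel subunit (−0.77), CALML4 (−0.76), MARVELD3, of tight junctions (−0.63), NANOS1 (−0.51) and CLU (−0.50). CLU encodes clusterin, an abundant chaperone, and had 576 to 1157 CPM in vehicle and 336 to 930 CPM with TGF-β.

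Of 20 tested markers of skeletal and cardiac muscle, 2 fell (0.132% of all entries), and 3 of the 15 with a mean count of at least 10 were lower in 6 of 6 batches (3.14% of all entries). MYOD1, the transcription factor of skeletal muscle, had 0.186 to 0.711 CPM in vehicle and 0 to 0.139 CPM with TGF-β. MYL1, a skeletal myosin light chain, had 0.173 to 0.92 CPM in vehicle and 0 to 0.164 CPM with TGF-β. Neither gene's groups overlapped, which among the 20971 entries with a mean count of at least 10 was so for 2 that were lower (0.00954%), MYL1 among them. Both fell, by 3.17 (adjusted p = 0.0372) and 2.68 (adjusted p = 0.0489) on the log2 scale. Mean counts were 6.58 and 11.4 over the 12 libraries, so these folds rest on few reads. ACTC1, the cardiac actin gene, had a log2 fold change of −0.63 (adjusted p = 0.22), and DES, the desmin gene, one of 0.83 (adjusted p = 0.547). Smooth muscle genes gave no call, and the log2 fold change of ACTA2 was −0.21 (adjusted p = 0.952).

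The genes of ER stress and protein folding were mostly a little higher, without any called by edgeR. Of 21, 14 (66.7%) were higher in 6 of 6 batches, where the share of all entries was 2.18%, and 6 more were higher in 5 of 6. The median log2 fold change was 0.31. EDEM1, which sends misfolded proteins to degradation, had 0.34 (SE 0.08, adjusted p = 0.161 by edgeR and 0.00801 by DESeq2). HSPA5, the main ER chaperone, went from a median of 759 to 955 CPM (0.33, adjusted p = 0.662), and HYOU1, another chaperone, from 154 to 239.8 CPM (0.48, adjusted p = 0.409).

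Batch 2 gave the highest ratio of these genes in many cases, for example 1.3 for PDIA4, a disulphide isomerase, and 1.28 for MANF, a secreted factor of the ER. Without batches 2 and 4 the count of genes higher in each batch was again 14 of 21, against 10.2% of all entries, but the log2 fold changes were smaller. They were 0.16 for HSPA5, 0.22 for HYOU1 and 0.20 for MANF, which had 0.42 over all batches. PDIA4 went from 0.41 to 0.22. Of 29 target genes of ATF4, the transcription factor of the amino acid response, 6 (20.7%, against 2.18% of all entries) were higher in 6 of 6 batches. None of the 29 was called by edgeR and 1 was by DESeq2. SLC7A5, an amino acid transporter, had a log2 fold change of 0.34 (adjusted p = 0.274) and DDIT3, of both lists, 0.40 (adjusted p = 0.241). These were 0.20 and 0.23 without batches 2 and 4.

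Interferon-stimulated and MHC class I genes were lower in 6 of 6 batches for 6 of 31 (19.4%, where the share of all entries was 3.14%), and none was called by edgeR. IFIT1, an antiviral RNA-binding protein gene, went from a median of 11.3 to 6.20 CPM (log2 fold change −0.76, SE 0.16, adjusted p = 0.101 by edgeR and 0.00161 by DESeq2). IFIT2 and IFIT3 had −0.74 and −0.73 (adjusted p = 0.195 and 0.146), and B2M, the light chain of MHC class I, −0.38 (adjusted p = 0.395). Of 19 complement genes, CLU was called (0.132% of all entries were called lower) and 4 (21.1%, against 3.14% of all entries) were lower in 6 of 6 batches. C6 was among these 4 with −2.63 (adjusted p = 0.126), as was C7 with −1.63 (adjusted p = 0.49). DESeq2 called C6 (adjusted p = 6.8e-05) and not C7 (adjusted p = 0.14). The values were −1.83 for C6 (adjusted p = 0.206) and −0.77 for C7 (adjusted p = 0.773) without batches 2 and 4. Both are components of the membrane attack complex.

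The median log2 fold change was 0.045 over pan-neuronal genes and −0.012 over sensory neuron genes, whose members ran from −0.58 to 1.07. Of 29 pan-neuronal genes, none was called and 2 (6.9%, against 2.18% of all entries) were higher in 6 of 6 batches. These were TUBB3, the neuronal tubulin gene, and ELAVL3, an RNA-binding protein gene. TUBB3 had 231 to 948 CPM in vehicle and 279 to 1047 CPM with TGF-β, a log2 fold change of 0.20 (SE 0.13, adjusted p = 0.879). UCHL1, a ubiquitin hydrolase abundant in neurons, had a log2 fold change of −0.06 (SE 0.12, adjusted p = 0.981). Of 40 sensory neuron genes, none was called (0.0523% of all entries were called higher and 0.132% lower). TRPV1, the capsaicin receptor, had 9.73 to 12.1 CPM in vehicle and 8.76 to 14.6 CPM with TGF-β (−0.02, SE 0.11, adjusted p = 0.992), and P2RX3, an ATP-gated channel of sensory neurons, 17.5 to 138 and 18.3 to 162 CPM (0.20, SE 0.22, adjusted p = 0.965).

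CHRNA5 and CHRNB4, nicotinic acetylcholine receptor subunits, were higher in 6 of 6 batches, with log2 fold changes of 0.56 (adjusted p = 0.161) and 0.73 (adjusted p = 0.227). CHRNB4 was at 0.48 without batches 2 and 4. None of 43 synaptic vesicle release genes, 13 sodium channel genes or 22 calcium channel genes was in 1 direction in 6 of 6 batches. The same held for 22 neuropeptide genes and 40 cell cycle genes, and none of these genes was called. Of all entries, 2.18% were higher and 3.14% lower in 6 of 6 batches, and 0.0523% and 0.132% were called. At such low shares, lists of these sizes can hold none, so these counts say little about their members. The cell cycle genes still had a median log2 fold change of 0.35, with members from −0.56 to 0.72. Of 71 potassium channel genes with a mean count of at least 10, a list that does not hold KCNE2, KCNAB1 was called (0.132% of all entries were called lower). By DESeq2, CHRNA5 and CHRNB4 were called (adjusted p = 0.00984 and 0.0484), as was RUNX1 of the sensory neuron list (adjusted p = 0.00946).

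**Figure D4:**
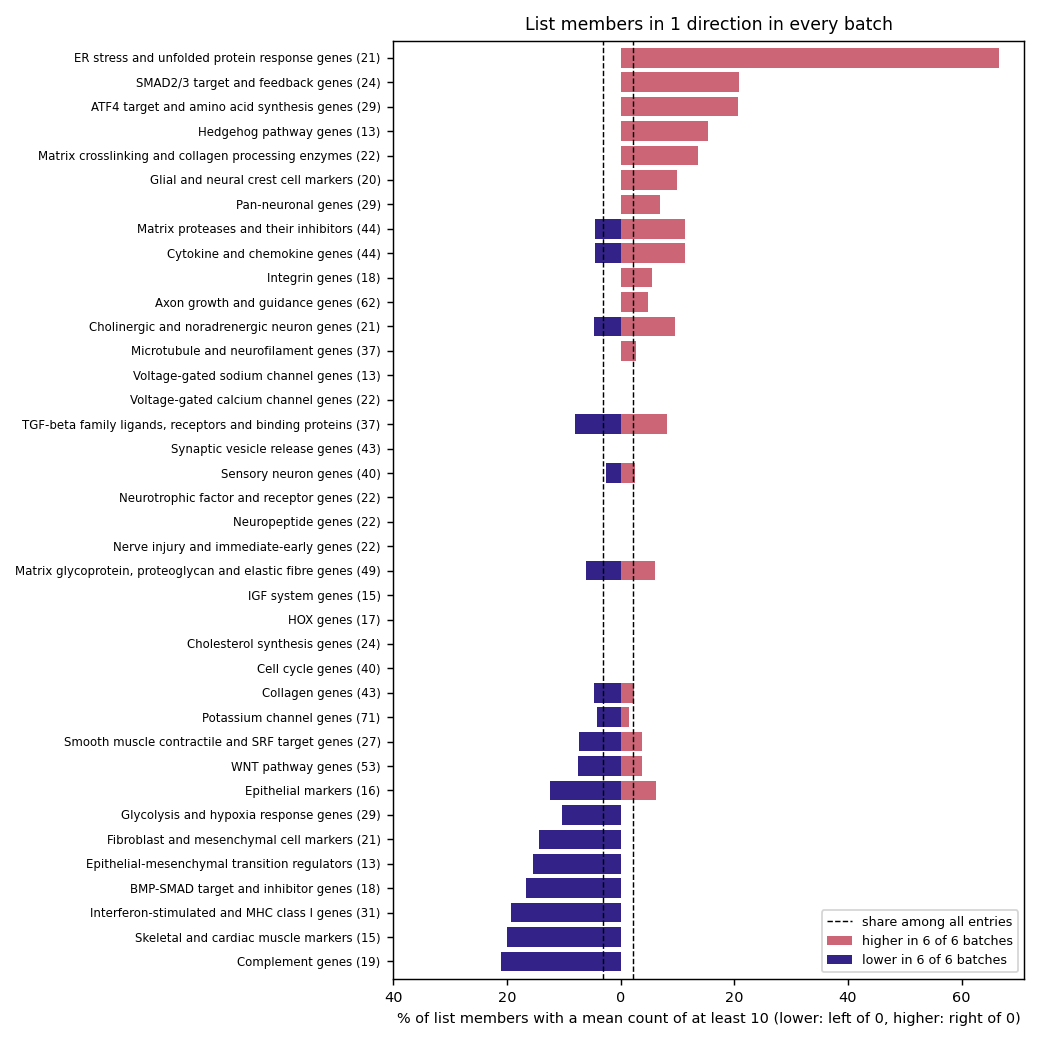
Percent of the members of each list with a mean count of at least 10 (number in brackets) that were higher (red, right of 0) or lower (blue, left of 0) in 6 of 6 batches. Dashed lines mark the shares of all entries, 2.18% higher and 3.14% lower; the ER stress list, with 66.7% higher, has the longest bar.

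The study named 25 genes as higher with TGF-β on these samples, so their direction is not independent evidence. COL10A1, MMP7, IL11 and CLEC18B were called by edgeR, 18 were called by DESeq2, and 19 were higher in 6 of 6 batches. The remaining genes called by edgeR, such as R3HDML and ODAM among those that rose, are not in that list. R3HDML and ITIH2, like COL10A1, were however among the genes that the study drew from a principal component analysis of these samples.

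The last comparison set TGF-β directly against IL-4 + IL-13, given at 10 and 3 ng/ml for 5 days. It shares the 6 TGF-β libraries with the comparison with vehicle, so the values stand side by side. TGF-β gave 240 entries higher (0.836%) and 387 lower (1.35%) than IL-4 + IL-13. COL10A1 was higher than with IL-4 + IL-13 by a log2 fold change of 4.51 (adjusted p = 3.65e-05), MMP7 by 3.98 (adjusted p = 0.000146), R3HDML by 2.91 (adjusted p = 3.22e-06) and IL11 by 1.83 (adjusted p = 0.000213). These are not sizes of the TGF-β effect alone. With IL-4 + IL-13 the mean level was below that of vehicle for MMP7 (0.275 and 1.01 CPM), R3HDML (1.25 and 2.95 CPM) and IL11 (16.6 and 31.1 CPM). It was near that of vehicle for COL10A1 (0.0821 and 0.0752 CPM). MRPS6 and KL were lower, by log2 fold changes of −0.55 (adjusted p = 0.0013) and −1.60 (adjusted p = 0.00319).

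Other genes that fell against vehicle gave no difference past the threshold from IL-4 + IL-13. The log2 difference was 0.20 for ABCB5 (adjusted p = 0.868), −0.13 for S100A4 (adjusted p = 0.914), −0.60 for ITIH2 (adjusted p = 0.828) and 0.39 for DTWD2 (adjusted p = 0.155). HMGA2, which was not called against vehicle, was higher than with IL-4 + IL-13 by 1.92 (adjusted p = 0.000213), and so was VCAN by 1.04 (adjusted p = 0.00277).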

How the data were processed

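Polyadenylated RNA of whole cultures was sequenced (Illumina). The deposited files hold raw counts of reads, made by the authors' sequencing provider after adapter removal (Trimmomatic 0.30) and alignment against GRCh38.p14 (called a mouse reference in the labels, but a human build). The aligner, the counting tool and the strand setting are not given in the sources used here. The deposited counts hold 36468 entries, 13161 of them unnamed NewGene loci, which were tested but are not named. Entries that share a symbol (4886, with 5.653% of counts) were kept apart, and the entry with the most counts stands for a list member.

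Genes were tested with edgeR 4.0.16 (TMM, quasi-likelihood F test, robust) in R 4.3.3, with the model batch + treatment over 18 libraries (vehicle, TGF-β, and IL-4 with IL-13), a total count of at least 10, and Benjamini-Hochberg adjustment over 28701 entries. Calls were made at an adjusted p under 0.05. Adjusted p values are edgeR's unless DESeq2 1.42.0 (Wald test, same model) is named. The SE is the fold change on the log2 scale over the square root of F. Ratios within a batch used CPM + 0.1. Scripts were tested on simulated data. A batch is a differentiation batch, per the labels, which pair the libraries; the correlations beside the depths check this pairing. The labels do not say how far cultures of a batch were separate. With batch as a block, p values measure how far treatment differences vary from batch to batch over 18 libraries of 1 cell line. No 2 libraries of a group agreed within sampling noise (smallest chi-square per degree of freedom 18.3).

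The members and the 42 gene lists were chosen with earlier results of these data known, and 4 lists (choroid plexus, retinal pigment epithelium, metallothioneins, surroundings of MRPS6) after the values were seen. Genes were named by 3 criteria: called, with a mean count of at least 10 over the 12 libraries (the 20 with the smallest p per direction); higher or lower in 6 of 6 batches, a mean count of at least 50 and called by DESeq2 (15 per direction with the smallest edgeR p); and, per list, the 5 members with the smallest p. MYOD1, NR3C2, C11orf52, CYP1B1, FMO1, NANOS1, MARVELD3 and CALML4, the other called genes, and members such as TGFBI, SMAD7, SKI, TGFBR2, HSPA5, PDIA4, MANF, ACTA2, UCHL1, TRPV1, P2RX3, CLEC18A and CLEC18C were named outside these criteria, after their values were seen. Promoters came from a RefSeq table. None of the 13 mitochondrially encoded genes had an entry under the symbols used. A few genes were tested and counted with the rest but are not named in the text.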

Additional observations from a re-analysis of the deposited data

Results flagged for a closer look

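Within-batch log2 ratios of the 44 called named genes were searched for a batch that lay far from the others by Dixon's 95% critical value for 6 values, which chance exceeds in about 1 of 20 groups. MRPS6 was the 1 gene found: its ratio was −0.89 in batch 5, the nearest other ratio was −0.53, and the gap was 0.774 of the range. Without batch 5 the log2 fold change of MRPS6 was −0.49 (adjusted p = 0.183 by edgeR).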

How the results depend on the processing

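Counts of calls moved most. TGF-β gave 15 entries higher and 38 lower than vehicle in the reported fit, against 77 and 218 by DESeq2 and 13 and 35 with its size factors. There were 9 and 23 with no filter on low counts, 10 and 27 with filterByExpr, which left COL10A1 and 2 other called genes untested, and 35 and 98 with the IL-6 libraries in the fit. The 12 vehicle and TGF-β libraries alone gave 1 and 3, the legacy quasi-likelihood method 2 and 10 (COL10A1 with an adjusted p of 0.0514), and robust estimation switched off 10 and 25. Leaving out 1 batch at a time gave 1 to 32 higher and 0 to 22 lower, and leaving out batches 2 and 4, added after the data were seen, 5 and 1. Without the replicate block, that is without the pairing by batch, 1 entry was higher (COL10A1) and 0 were lower, with 691 entries at an unadjusted p under 0.05, against 1999 with the pairing. All 44 named genes, where tested, kept their direction under each of these alternatives, but they were called on these same libraries. The cause of these differences was not tested.

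Against IL-4 + IL-13, with 240 higher and 387 lower, DESeq2 gave 464 and 764, the fit with IL-6 gave 385 and 612, no replicate block 21 and 36, and leaving out batches 2 and 4 gave 407 and 360. Leaving out 1 batch gave 79 to 320 higher and 83 to 512 lower.

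Of the named genes, 5 with values near 0 changed sign. Leaving out 1 batch gave −0.068 to 0.088 for OTX2, −0.053 to 0.034 for ATP5PO, −0.10 to 0.062 for TRPV1, −0.16 to 0.078 for UCHL1 and −0.27 to 0.018 for MT2A, as log2 fold changes. Without batches 2 and 4, OTX2 was at −0.062 and TRPV1 at 0.027.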
